A study of Mus musculus with 6 samples.

Results

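The transcription factor gene *Hic2*, its paralogue *Hic1*, the corepressor genes *Ctbp1*, *Ctbp2*, *Hdac1* and *Hdac2*, and the genes *Sirt1*, *Ackr3* and *Cdkn1a*, which are reported targets of HIC1, were examined in E9.5 mouse hearts. The 9 genes were taken by name, and a gene was represented by the array's transcript cluster annotated to it alone. Of the 9 genes, 7 had such a cluster among the 14996 clusters annotated to a single gene. *Ctbp2* was represented only on clusters shared with its neighbour *Zranb1*, and *Hdac1* was not analysed here.

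The wildtype group comprised 3 pools of hearts from embryos with the genotype *Mesp1*+/+; *Hic2* FL/FL, and the mutant group 3 pools with the genotype *Mesp1*Cre/+; *Hic2* FL/FL. Both groups thus carried the floxed *Hic2* alleles, and the groups differed in the Cre allele, which removes *Hic2* from the anterior mesoderm and its derivatives. Each pool held 4 to 6 hearts from embryos without a visible phenotype, with the blood inside them, and was hybridised to an Affymetrix Mouse Exon 1.0 ST array. The Cre line is a knock-in at *Mesp1*, and loss of 1 *Mesp1* copy cannot be told apart from loss of *Hic2* in these arrays. *Mesp1* itself was below the intensity filter described next, with mean log2 values of 5.22 ± 0.14 in the wildtype and 5.28 ± 0.12 in the mutant (SD, n = 3 each).

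HIC1 and HIC2 are repressors of the BTB/POZ family, with an N-terminal protein interaction domain and C-terminal zinc fingers that bind DNA. HIC1, known as a tumour suppressor in man, recruits CtBP corepressors and histone deacetylase complexes such as NuRD to the genes it silences. In human cells the genes for SIRT1, for the atypical chemokine receptor ACKR3 and for the cell cycle inhibitor p21 are reported to be repressed by HIC1. The comparison of mutant with wildtype therefore gives the level of the deleted gene, and of the genes around it in this network, in the heart tube.

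Values are log2 expression after RMA, and differences are mutant minus wildtype on that scale. Levels of different clusters come from different probes and were not compared with each other. Tests were made with limma over the 10439 clusters that carry a gene and had a mean linear value over 100 in the higher genotype, and p-values were adjusted over all of them by the Benjamini-Hochberg method. Of the 7 genes, 6 passed this filter. *Hic1* did not, and its values come from the fit without the filter. By limma 0 of the 6 had an adjusted p under 0.05, against 0.0671% of all clusters tested. At an unadjusted p under 0.05, 1 was lower in the mutant, against 5.9% of all clusters, and 0 were higher, against 1.68%. The mean was lower in the mutant for 5 of the 6, against 71.8% of all clusters tested, whose median difference was -0.09. That share of all clusters was 58.2% after quantile normalisation and 54.4% after cyclic loess.

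Array medians lay between 7.18 and 7.31, and arrays of the same genotype correlated at 0.988 to 0.993 over all clusters, as did arrays of different genotypes, at 0.989 to 0.993. Cardiomyocyte markers were high on every array, with medians per array of 13.09 to 13.33, and 4 of 11 had a higher mean in the mutant. Of all clusters tested 71.8% had a lower mean, which is the background for the counts of marker genes here. Erythroid markers were higher in the mutant for 15 of 15 genes with a cluster, and all 15 passed the filter. The summed linear level of the erythroid markers was 6319 to 9253 in the wildtype and 10826 to 16217 in the mutant. Endothelial and endocardial markers were higher in 1 of 10, with sums of 20643 to 21963 in the wildtype and 17902 to 21525 in the mutant. Mutant replicate 3 stood apart in the liver and yolk sac endoderm markers, whose median was 8.52 on that array, 6.45 and 5.11 on the other mutant arrays and 6.43, 4.97 and 4.90 in the wildtype. Means of these markers were higher in 4 of 4, with sums of 204 to 698 in the wildtype and 228 to 1715 in the mutant. All 4 genes with a cluster passed the filter, which takes the mean of the higher genotype. Since mutant replicate 3 stood apart, the count of 4 is not read as a difference between genotypes. Of 6 skeletal muscle markers 3 passed the filter, and the regulators *Myod1*, *Myf5* and *Myog* did not. The 2 with a higher mean were the fast troponin genes *Tnnt3* (difference 1.51) and *Tnni2* (0.79). For both, the study reports raised expression in the mutant heart tube at E9.5 by *in situ* hybridisation, limited to the future atrium for *Tnnt3*. By RT-qPCR at that age it reports a rise of *Tnnt3*, while the change of *Tnni2* was not significant. The skeletal sums, over all 6 markers with a cluster, were 10730 to 11786 in the wildtype and 11987 to 14812 in the mutant. They include *Tnnt3* and *Tnni2*, and the part of each gene in them was not separated. Epicardial markers were higher in 1 of 4, with sums of 2857 to 3841 and 2286 to 3237. Of the markers that passed, 2 of 3 neural, 2 of 2 pharyngeal and foregut and 1 of 1 white cell genes had a higher mean, while the neural genes *Foxd3*, *Pax3*, *Neurog1* and *Elavl3*, the epithelial genes *Shh*, *Sox2*, *Pax9* and *Epcam* and the white cell genes *Ptprc* and *Csf1r* were under the filter. In a whole heart, fewer cells of a type and less RNA per cell cannot be told apart.

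*Hic2*, the gene targeted by Cre, was the single gene of the 7 whose genotypes did not overlap, and it lay lower in the mutant at an unadjusted, but not an adjusted, p under 0.05. It was at log2 values of 9.35, 9.36 and 8.91 in wildtype replicates 1, 2 and 3, and at 8.27, 8.23 and 8.37 in the mutant replicates. All mutant arrays lay below all wildtype arrays, as did those of 9.59% of the clusters tested, and wildtype replicate 3 was the closest of its genotype to the mutants. The gap between the lowest wildtype and the highest mutant array was 0.54, against a range of 0.45 within the wildtype and 0.14 within the mutant. Arrays of the same number differed by -1.08, -1.13 and -0.54 for replicates 1, 2 and 3. The means were 9.21 ± 0.25 and 8.29 ± 0.07 (SD, n = 3 each), a difference of -0.92 (standard error 0.137, 95% interval -1.23 to -0.61, unadjusted p = 0.000112 and adjusted p = 0.125 from limma). On this scale the mutant retained 52.9% of the wildtype level, with an interval of 42.6% to 65.7%.
Signal from *Hic2* was thus present on every mutant array, at a linear mean of 313.0, against 597.0 in the wildtype. No source used here says whether the probes of the cluster lie in the deleted exons, so the share retained is not a measure of cells that escaped Cre. By size of p *Hic2* ranked 9 of the 10439 clusters, 3 clusters had a lower difference, and 0.278% had a larger difference in either direction.
The adjusted p of *Hic2* depended on the scaling, on the test, on the clusters tested and on a single wildtype array. It passed 0.05 in limma after median centring (0.0442), quantile normalisation (0.0390) and cyclic loess (0.0388), and without wildtype replicate 3 (0.0249, difference -1.07). Without any other array it lay between 0.148 and 0.586. When the array's erythroid median was added as a covariate, limma gave a difference of -1.21 and an adjusted p of 0.200. The adjusted p of *Hic2* from limma was 0.228 without the filter and 0.247 with clusters without a gene kept. With the two-tailed test of the study's methods in place of limma, it was 0.664 on log2 values and 0.656 on linear values.

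**Figure D1:**
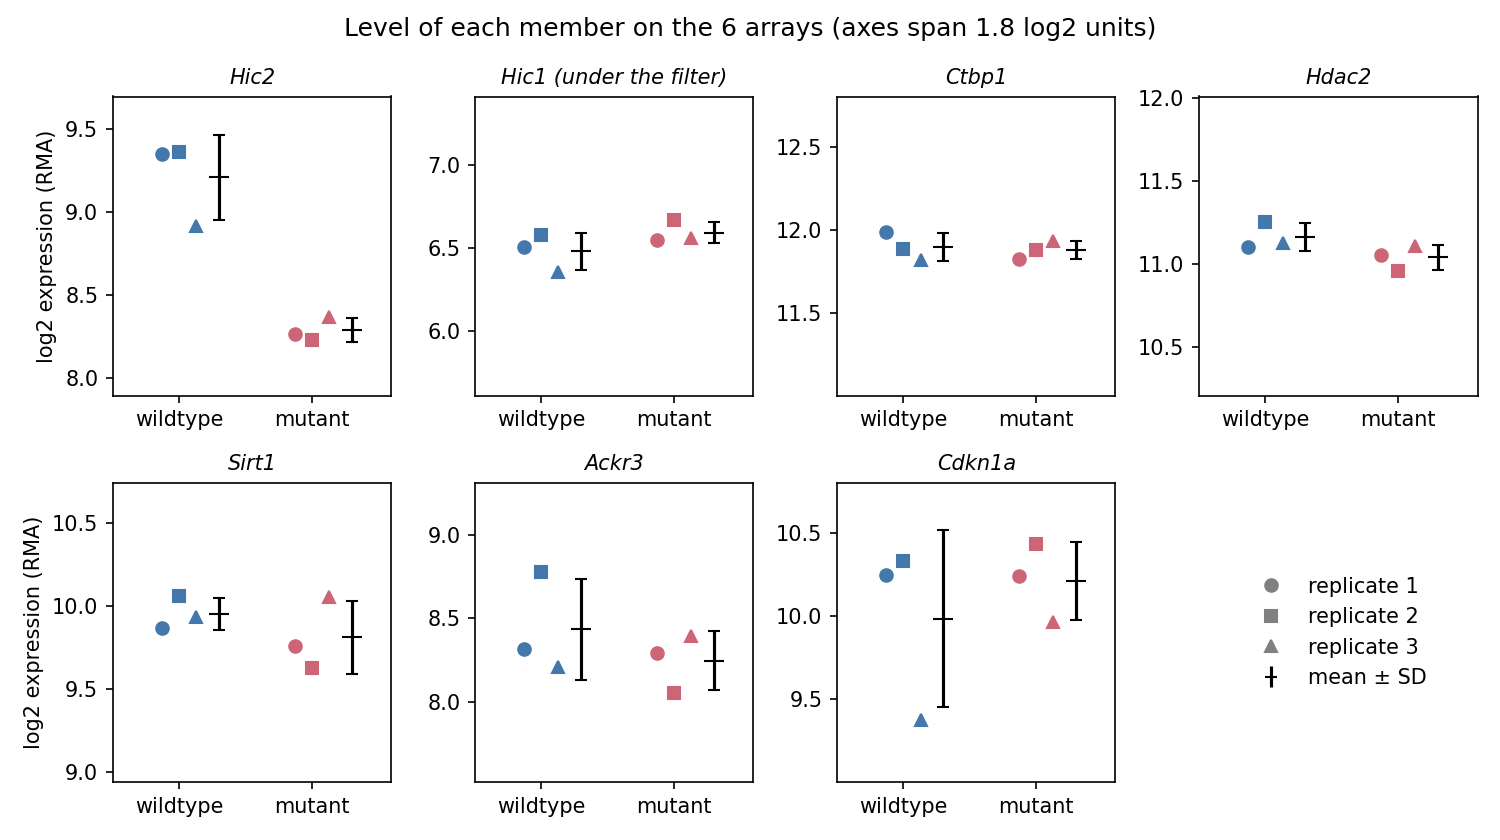
Log2 expression (RMA) of the 7 genes with a cluster of their own on the 3 wildtype (blue) and 3 mutant (red) arrays. Symbols mark the replicate number, black bars the mean ± SD, and each axis spans the same log2 range around its gene. *Hic2* is the gene whose genotypes do not overlap, and wildtype replicate 3 stands apart for *Cdkn1a*, at 9.37.

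*Hic1*, the paralogue that binds related DNA sites, was dim in both genotypes. Its log2 values were 6.51, 6.58 and 6.36 in the wildtype and 6.55, 6.67 and 6.56 in the mutant. The genotypes overlapped, and the linear means of 89.5 and 96.7 lay just under the filter of 100. The difference was 0.11 (standard error 0.0961, 95% interval -0.11 to 0.34, adjusted p = 0.752 from limma without the filter). In the mutant the interval ran from 92.7% to 126% of the wildtype level, on values just under the filter.
The difference between the paralogues was tested within arrays. Set against the *Hic1* cluster of the same array, the *Hic2* cluster differed by -1.03 between mutant and wildtype. The difference between the clusters was 2.84, 2.78 and 2.56 in the wildtype and 1.72, 1.56 and 1.81 in the mutant. The size of this difference depends on the probes, so its shift between genotypes alone is read. The genotypes did not overlap. The two-sided p by exact permutation was 0.1, which no design of 3 arrays per genotype can go below, so the test could not reach 0.05. Most of the shift was that of *Hic2* itself, since the dim *Hic1* cluster differed by 0.11. The corresponding tests for the CtBP and HDAC pairs were not run, since *Ctbp2* and *Hdac1* had no cluster of their own.

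CtBP proteins are corepressors that join DNA-bound repressors to histone-modifying enzymes. *Ctbp1* was at 11.99, 11.88 and 11.82 in the wildtype and at 11.82, 11.88 and 11.93 in the mutant. These values overlapped almost fully. The difference of -0.02 (standard error 0.0965, 95% interval -0.24 to 0.20, adjusted p = 0.951 from limma) changed sign after cyclic loess, at 0.024, so no direction is given for *Ctbp1*. It was also at 0.027 without wildtype replicate 1 and at 0.011 without mutant replicate 1. The clusters shared by *Ctbp2* and *Zranb1*, which encodes a deubiquitinase, were looked at after the annotation was seen. Their differences were -0.09 (95% interval -0.35 to 0.17) and -0.07 (95% interval -0.29 to 0.14), with overlapping genotypes and adjusted p-values of 0.774 and 0.784 from limma. A change of *Ctbp2* cannot be told apart from a change of *Zranb1* on these clusters.

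*Hdac2* encodes a class I histone deacetylase of the NuRD, Sin3 and CoREST complexes. It was at 11.10, 11.25 and 11.13 in the wildtype and at 11.06, 10.96 and 11.11 in the mutant. The genotypes met at their edges, where mutant replicate 3 was marginally above wildtype replicate 1. The difference was -0.12 (standard error 0.0981, 95% interval -0.34 to 0.10, adjusted p = 0.662 from limma), against a median of -0.09 over all clusters tested. It was -0.08 after quantile normalisation and -0.06 after cyclic loess.

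*Sirt1*, *Ackr3* and *Cdkn1a* are the genes reported as repressed by HIC1, and their promoters are shown because a repressor would act on such DNA. Each is the 300 bases from 250 before to 50 after a start site in the RefSeq annotation of GRCm38.p6, printed along the gene's strand, and 8 of the 9 genes had such an entry. Capitals mark the letters GGCA, the core of the HIC1 binding site, or TGCC, the same core on the opposite strand. For *Cdkn1a* the downstream of 2 listed start sites is shown. The windows are at chr10:63338986-63339285 on the minus strand for *Sirt1*, chr1:90203730-90204029 on the plus strand for *Ackr3* and chr17:29093519-29093818 on the plus strand for *Cdkn1a*.
Sirt1: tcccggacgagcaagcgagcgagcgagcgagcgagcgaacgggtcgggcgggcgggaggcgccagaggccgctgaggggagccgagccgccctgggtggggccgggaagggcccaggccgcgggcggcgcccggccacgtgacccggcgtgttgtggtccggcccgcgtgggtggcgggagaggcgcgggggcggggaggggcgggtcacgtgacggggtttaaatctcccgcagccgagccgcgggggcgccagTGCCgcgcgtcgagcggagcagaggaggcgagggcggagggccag
Ackr3: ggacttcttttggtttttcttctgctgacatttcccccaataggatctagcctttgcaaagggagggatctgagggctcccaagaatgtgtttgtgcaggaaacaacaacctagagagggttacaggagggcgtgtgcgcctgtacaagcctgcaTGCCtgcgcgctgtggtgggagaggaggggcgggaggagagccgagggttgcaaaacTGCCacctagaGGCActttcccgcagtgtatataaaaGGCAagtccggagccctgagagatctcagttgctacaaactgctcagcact
Cdkn1a: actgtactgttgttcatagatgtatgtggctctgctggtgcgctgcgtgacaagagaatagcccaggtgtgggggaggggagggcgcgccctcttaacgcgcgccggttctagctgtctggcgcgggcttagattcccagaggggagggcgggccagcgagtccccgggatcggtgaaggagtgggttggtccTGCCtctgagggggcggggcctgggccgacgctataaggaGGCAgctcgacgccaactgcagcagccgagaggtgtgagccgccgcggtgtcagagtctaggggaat

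The core GGCA, searched on both strands, occurred 1 time in the *Sirt1* window, 4 times in that of *Ackr3* and 2 times in that of *Cdkn1a*. Of all 32851 promoter windows of this length 92.4% held it, with a median of 3 matches. The longer letters GGGCANCC, which contain the core and come from the HIC1 response element, were found in 5.46% of all windows, again on both strands, and in 0 of the 11 windows of the 8 genes. The matches describe the letters of these windows and say nothing of binding elsewhere in the genes.

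SIRT1 is a deacetylase that uses NAD+ and acts on histones and on p53. *Sirt1* was at 9.87, 10.06 and 9.93 in the wildtype and at 9.76, 9.62 and 10.05 in the mutant. Mutant replicates 1 and 2 were below all wildtype arrays, whereas mutant replicate 3 lay within the wildtype range. The difference was -0.14 (standard error 0.129, 95% interval -0.44 to 0.15, adjusted p = 0.695 from limma). Without mutant replicate 3 it was -0.26 with an unadjusted p of 0.0459 and an adjusted p of 0.246. That array also stood apart in the liver and yolk sac endoderm markers, at a median of 8.52 against 6.45 and 5.11 in the other mutants, and had the highest erythroid median, 9.53 against 9.18 and 8.89. The part of either in this value was not tested.

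ACKR3, also known as CXCR7, takes up the chemokine CXCL12 and is required for normal heart valve and vessel development. *Ackr3* was at 8.32, 8.78 and 8.21 in the wildtype and at 8.29, 8.05 and 8.39 in the mutant. Wildtype replicate 2 was the high array, and the other wildtypes lay among the mutants. The difference was -0.19 (standard error 0.165, 95% interval -0.56 to 0.19, adjusted p = 0.682 from limma). It shrank to -0.02 without wildtype replicate 2 and to -0.09 without mutant replicate 2, and reached -0.30 without wildtype replicate 3. In the mutant the interval ran from 67.6% to 114% of the wildtype level.

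*Cdkn1a* encodes p21, which halts the cell cycle by inhibiting cyclin-dependent kinases and is induced by p53. It was at 10.25, 10.33 and 9.37 in the wildtype and at 10.24, 10.43 and 9.97 in the mutant. The number 3 array was the lowest of each genotype, and the genotypes overlapped. The wildtype SD of 0.53 was reached or exceeded by 0.814% of the clusters tested. The difference was 0.23 (standard error 0.246, 95% interval -0.33 to 0.79, adjusted p = 0.736 from limma), and its sign rested on wildtype replicate 3, without which it was -0.077. The erythroid covariate moved it to -0.11. Between arrays of the same number the differences were -0.01, 0.10 and 0.59 for replicates 1, 2 and 3.

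**Figure D2:**
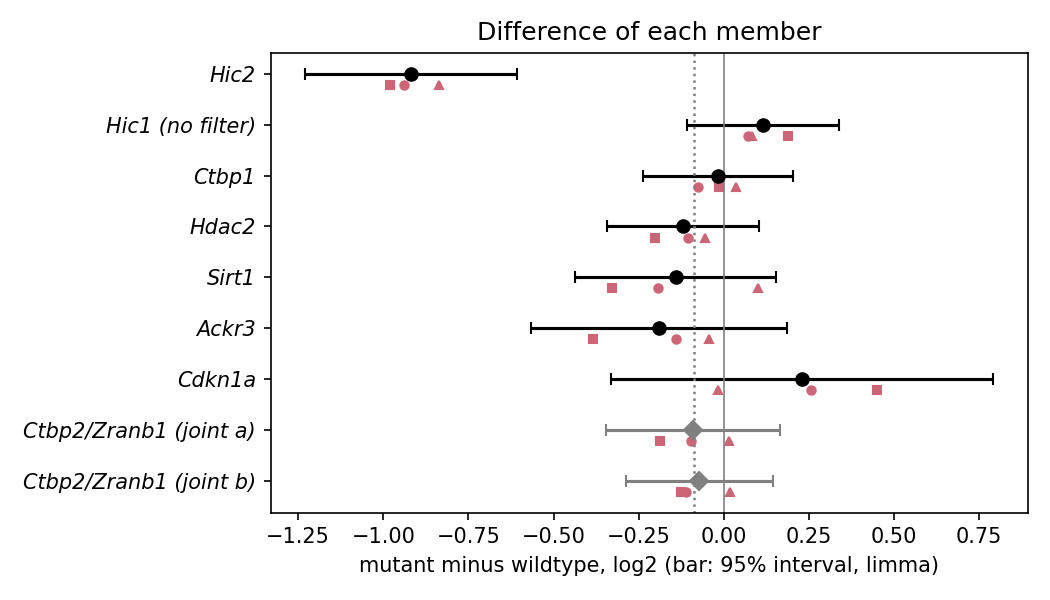
Mutant minus wildtype on the log2 scale for the 7 genes (black circles) and for both clusters shared by *Ctbp2* and *Zranb1* (grey diamonds), with 95% intervals from limma. Red symbols are the mutant arrays minus the wildtype mean (circle, square and triangle for replicates 1, 2 and 3), and the dotted line is the median of all clusters tested, -0.09. The interval of *Hic2* lies at -1.23 to -0.61, and each of the others includes 0.

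The arrays did not take the same place for all genes. Wildtype replicate 3 was the lowest wildtype array for 5 of the 7 genes, *Hic2*, *Hic1*, *Ctbp1*, *Ackr3* and *Cdkn1a*, and wildtype replicate 2 the highest for 6, the exception being *Ctbp1*. Wildtype replicate 3 also had the lowest median over all clusters of the 6 arrays, 7.18, and the lowest erythroid median, 7.69. Among the mutants, replicate 2 was the lowest for 4 of the 7 and replicate 3 the highest for 5. With 1 array left out at a time, the direction of *Hic2*, *Hic1*, *Hdac2*, *Sirt1* and *Ackr3* held in all 6 fits, and those of *Ctbp1* and *Cdkn1a* did not.

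**Figure D3:**
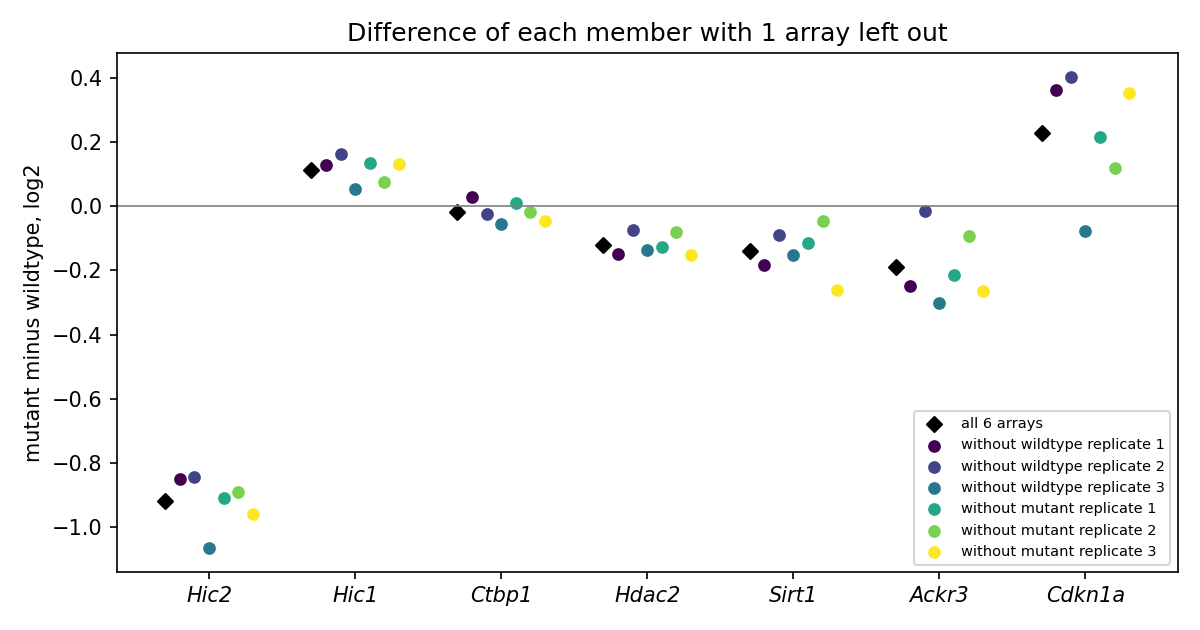
Mutant minus wildtype on the log2 scale for the 7 genes over all 6 arrays (black diamonds) and with each array left out (coloured circles). *Hic2* stays between -1.07 and -0.84, and *Cdkn1a* ranges from -0.077 to 0.40.

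Around these genes, 8 wider lists covered other reported HIC1 or HIC2 targets, further deacetylases, corepressor and remodelling subunits and CDK inhibitors. They also covered p53 targets and the CXCL12 axis with atypical chemokine receptors. Of their 85 genes, counted once each, 76 had a cluster of their own and 68 passed the filter. Their median difference was -0.08, with 47 of 68 below 0, beside 71.8% of all clusters tested. At an unadjusted p under 0.05 from limma 3 of the 68 were lower and 1 was higher, beside 5.9% and 1.68% of all clusters, so neither count stood out from the background. The higher gene was also the single gene with an adjusted p under 0.05. Genes of the lists whose genotypes did not overlap are named as descriptions. All mutant arrays lay below all wildtype arrays for 9.59% of clusters tested, and the share with all above was not counted.

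Of 12 other reported targets of HIC1 or HIC2, 8 were tested, with a median of -0.11. *Sox9*, a transcription factor of cartilage and of the cushions that form heart valves, was lower at an unadjusted p of 0.0161 and an adjusted p of 0.606 in limma (difference -0.46, standard error 0.155). Its values of 10.23, 10.07 and 9.88 in the wildtype met those of 9.57, 9.35 and 9.88 in the mutant at replicate 3 of each. The cell cycle inhibitor gene *Cdkn1c* was at -0.20, the cyclin gene *Ccnd1* at -0.21 and the ephrin ligand gene *Efna1* at 0.18, all with adjusted p-values of 0.606 to 0.650 from limma. *Il6* and *Fgfbp1* were under the filter.

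Among corepressor genes, 0 of the 7 class I deacetylases and sirtuins and 0 of the 11 NuRD subunits tested passed an unadjusted p of 0.05 from limma in either direction, and 0 did so after adjustment. Their medians were -0.10 and -0.09, close to that of all clusters. The lowest p among them belonged to *Hdac8* (-0.15), *Sirt7* (-0.13), *Sirt6* (-0.13) and *Sirt5* (-0.10), and to the NuRD genes *Chd3* (-0.22), *Mta3* (-0.17), *Gatad2b* (-0.14) and *Mta2* (-0.18).
Of 9 partners of CtBP complexes, 8 had a lower mean, beside 71.8% of all clusters, and the median was -0.15. *Rcor3*, which encodes a CoREST scaffold, was lower at an unadjusted p of 0.0235 (-0.29, adjusted p = 0.606 from limma), with all mutant arrays below all wildtype arrays. Its paralogue *Rcor2* was at 10.16, 9.92 and 9.94 in the wildtype and at 10.32, 10.17 and 10.19 in the mutant, a difference of 0.22 without overlap (unadjusted p = 0.0714). After quantile normalisation or cyclic loess, 0 of the 9 were lower and 1 was higher at an unadjusted p under 0.05, and after median centring 2 were lower and 1 higher. The methyltransferase gene *Ehmt1* was at -0.22 and the repressor gene *Zeb1* at -0.19.
Of 10 SWI/SNF and Polycomb genes, 8 had a lower mean, again beside 71.8% of all clusters, with a median of -0.07. *Phf19*, a Polycomb accessory gene, was at 7.55, 7.43 and 7.31 in the wildtype and at 7.14, 7.06 and 7.09 in the mutant. The genotypes did not overlap, and the difference of -0.33 (standard error 0.102) had an unadjusted p of 0.0109 and, in limma, an adjusted p of 0.606. The remodeller genes *Smarcc1* (-0.21), *Arid1a* (-0.17) and *Smarca4* (-0.18) did not pass. The mutant arrays of *Smarcc1* and *Arid1a* lay below all wildtype arrays, while those of *Smarca4* overlapped them.

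The 5 CDK inhibitor genes tested other than *Cdkn1a* included 0 with an unadjusted p under 0.05 from limma, 0 of them after adjustment, and 3 below 0. *Cdkn2a* was at 0.25, *Cdkn2c* at -0.22 and *Cdkn2b* at 0.11, with adjusted p-values of 0.615 to 0.703. Among 14 tested genes of the p53 pathway other than *Cdkn1a*, 8 had a higher mean, the median was 0.02, and 0 passed unadjusted or adjusted in limma. *Phlda3*, which restrains growth signalling, was at 10.68, 10.59 and 10.50 in the wildtype and at 10.82, 10.87 and 10.71 in the mutant, a difference of 0.21 without overlap (unadjusted p = 0.0669). *Btg2* and *Gadd45a*, which slow growth after DNA damage, were at 0.20 and 0.23, and *Zmat3*, which encodes an RNA-binding protein, was at -0.22. After quantile normalisation or cyclic loess 2 genes of the p53 list were higher at an unadjusted p under 0.05, and 1 after median centring.

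The list of the CXCL12 axis also held atypical chemokine receptors and adrenomedullin genes, and 5 of its 9 genes were tested. *Cxcr4*, the signalling receptor for CXCL12, was under the filter. *Cxcl12* was at 8.49, 8.49 and 8.29 in the wildtype and at 8.59, 8.63 and 8.60 in the mutant. All mutant arrays lay above all wildtype arrays, and the mean difference was 0.18 with an adjusted p of 0.606 in limma. *Ackr1*, the chemokine receptor of the Duffy blood group and a gene of red cells and venules, was at 6.92, 6.74 and 6.81 in the wildtype and at 8.01, 7.79 and 8.37 in the mutant (difference 1.24, adjusted p = 0.0356 from limma). Its adjusted p was 0.102, 0.178 and 0.107 without wildtype replicates 1, 2 and 3, 0.0997 without mutant replicate 1, 0.0895 without the filter, 0.0826 with clusters without a gene kept and 0.200 with the erythroid covariate, under which the difference was 0.96. The receptor genes *Calcrl* and *Ramp2*, for adrenomedullin, were at -0.13 and -0.11.

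**Figure D4:**
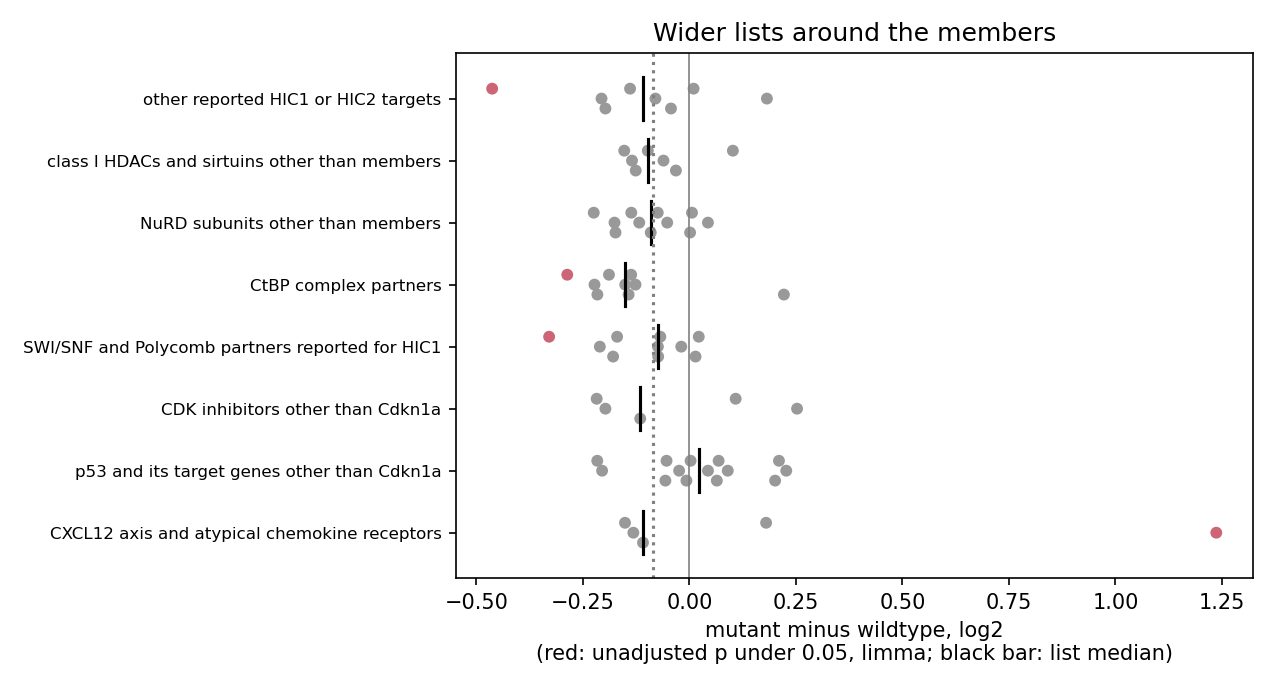
Mutant minus wildtype on the log2 scale for the tested genes of the 8 lists, a point per gene, with the list median as a black bar and the median of all clusters tested (-0.09) as a dotted line. Red points had an unadjusted p under 0.05 from limma: *Sox9*, *Rcor3* and *Phf19* to the left and *Ackr1* to the right.

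The genes beside *Hic2* on its chromosome were examined because the floxed locus is carried by both genotypes and the deletion by the mutant alone. The 3 nearest genes with a cluster of their own were taken on each side. On the side before *Hic2*, *Sdf2l1* (0.07) and *Ube2l3* (-0.16) overlapped between genotypes. *Ccdc116*, on the same side, was under the filter, and its mutant arrays lay below its wildtype arrays (difference -0.11). On the other side, *Pi4ka*, a phosphatidylinositol kinase gene, was at 10.46, 10.44 and 10.24 in the wildtype and at 10.10, 9.97 and 10.24 in the mutant. The mutant arrays lay below the wildtype arrays by a narrow margin (difference -0.27, unadjusted p = 0.0397, adjusted p = 0.606 from limma). *Snap29*, a membrane fusion gene, was at -0.25 (unadjusted p = 0.0526), also without overlap, and *Serpind1* was under the filter. The differences of *Pi4ka* and *Snap29* were smaller than that of *Hic2*, at -0.92. Of all clusters tested, 9.59% had all mutant arrays below all wildtype arrays.

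The clusters whose profile over the 6 arrays was closest to that of *Hic2* were those of *Gabrb2*, *Gpr22*, *Scube2*, *Car3* and *Tdo2*. Likeness was the root mean square difference between log2 values, each centred on its own mean, and the 5 lay at 0.0922, 0.0941, 0.124, 0.137 and 0.142. The measure selects genes that share the profile of *Hic2* on these arrays, both the separation of the genotypes and the place of each replicate, so these are descriptions and the differences of the 5 ran from -0.95 (*Gpr22*) to -0.65 (*Car3*). *Gabrb2*, a subunit gene of a receptor for GABA, was at 7.51, 7.56 and 7.07 in the wildtype and at 6.63, 6.62 and 6.64 in the mutant. A second, dimmer *Gabrb2* cluster differed by -0.66, with an adjusted p of 0.606 in limma. *Car3*, a carbonic anhydrase gene, was at 10.70, 10.73 and 10.33 in the wildtype and at 9.94, 9.86 and 10.02 in the mutant. The adjusted p-values of the 5 ran from 0.125 to 0.263 in limma.

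**Figure D5:**
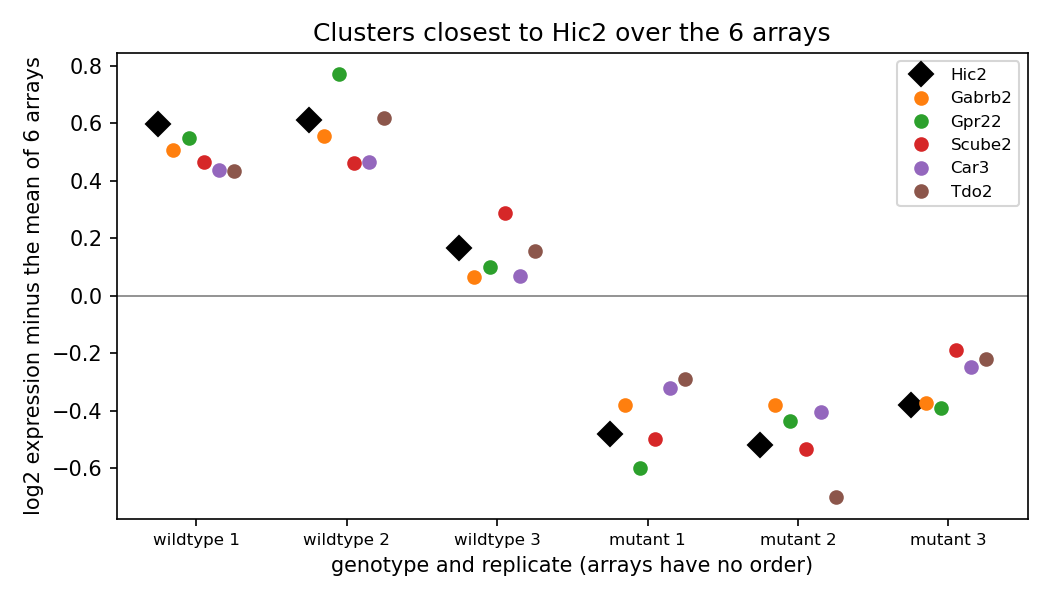
Log2 expression minus the mean of the 6 arrays for *Hic2* (black diamonds) and the 5 clusters closest to it (coloured circles), by genotype and replicate. By the way they were chosen, the clusters share with *Hic2* a low wildtype replicate 3 and mutant arrays below the wildtype arrays.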

How the data were processed

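Total RNA of 6 heart pools was labelled and hybridised to exon arrays, and the authors summarised the probes per transcript cluster with the core predictions of the Affymetrix Expression Console and RMA. The deposited log2 values were used as given, with all 6 columns. No software version or genome build is given in the sources used here. Genotypes were compared with limma 3.58.1 in R 4.3.3 without a block, as in the study's methods, whose two-tailed t-test was an alternative. No column was left unused. The clusters shared by *Ctbp2* were added after the annotation was seen. The members, the lists and the rule for named genes (the 9 genes, up to 4 of each list by p, neighbours of *Hic2* and the 5 nearest profiles) were chosen with earlier results of these data known. Arrays of the same replicate number correlated in their deviations from the genotype means at 0.311, 0.142 and 0.458. Wildtype replicate 2 correlated at 0.303 with mutant replicate 1, and wildtype replicate 1 at 0.231 with mutant replicate 2. Equal numbers were therefore not shown to be pairs, and the blocked fit served as an alternative. Arrays of different numbers ran from -0.424 to 0.303, and no source says what the numbers stand for. Each number 3 array correlated negatively with numbers 1 and 2 of the other genotype, at -0.424 to -0.261. Numbers 1 and 2 correlated positively with each other across genotypes. Figures were drawn with matplotlib 3.10.9. Arrays, 3 per genotype, limit the precision. Promoters were RefSeq entries of GRCm38.p6.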

Additional observations from a re-analysis of the deposited data

How the results depend on the processing

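Of 20 alternatives, *Hic2* kept its direction in 20, with differences from -1.21 to -0.82, as did *Hdac2*, *Sirt1* and *Ackr3* in 20 and *Hic1* in 17 of 17. *Hic2* passed an adjusted p of 0.05 in limma after median centring (difference -0.92), quantile normalisation (-0.84) and cyclic loess (-0.82), so that 1 of the 6 genes passed in each of these, against 0 on the deposited scale. As single arrays were left out, that count ran from 0 to 1 (1 without wildtype replicate 3), the count lower at an unadjusted p under 0.05 from 1 to 2 (2 without mutant replicate 3, with *Sirt1* added), and the difference of *Hic2* from -1.07 to -0.84. *Ctbp1* changed sign after cyclic loess, at 0.024, and ran from -0.057 to 0.027 with arrays left out. *Cdkn1a* was at -0.11 with the erythroid median as a covariate and ran from -0.077 to 0.40 with arrays left out. Apart from the array left out, which shows which values it rested on, the cause was not tested. With the replicate number as a block, *Hic2* was at -0.92 (adjusted p = 0.112 from limma) and the pairing changed no call, while the standard error of *Cdkn1a* went from 0.246 to 0.133. The median of all clusters was -0.09 after median centring, -0.03 after quantile normalisation and -0.01 after cyclic loess, with 72.2%, 58.2% and 54.4% below 0. The methods' t-test gave *Ackr1*, the gene called among the wider lists, an adjusted p of 0.664 on log2 values and 0.656 on linear values. From that test *Hic2* also had an adjusted p of 0.664 on log2 values and 0.656 on linear values. On log2 values no cluster passed 0.05 by the t-test, whose smallest adjusted p was 0.588. For the 8 wider lists, 13 of 48 counts moved under these scalings, all of them counts of 2 or fewer. *Hic1* was under the intensity filter, and the interval of *Cdkn1a*, -0.33 to 0.79, shows the precision that 3 arrays per genotype gave for the most variable of the 7 genes. The tests of the CtBP and HDAC pairs within arrays were not run.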
